A study of Mus musculus with 10 samples.

Results

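The comparison described here is 1 pair of microarrays out of the 10 in the series. The first array holds RNA of Ezh2-deleted bone marrow cells whose disease label lists MDS, MDS/MPN and MDS/MPN_TC together as Mixed, and it is called the mixed array below. The second is the wild type array of the same slide, and both carry a label of 9 to 12 months after transplantation. They were chosen by their scanner file titles, so no measured value entered the choice. The mice were C57BL/6 carrying Cre-Ert, a Cre recombinase switched on by tamoxifen, with floxed Ezh2 alleles (Cre-Ert;Ezh2fl/fl) in the deletion groups and without them in the wild type. Per the series text tamoxifen followed transplantation, and both groups carry the Cre. CD45.2 LSK cells, the marrow fraction without lineage markers that carries Sca-1 and c-Kit and contains the blood stem cells and the earliest progenitors, were sorted from the marrow. The other arrays were 6 Ezh2-deleted arrays of the same slide, namely 2 labelled MDS, 3 labelled MDS/MPN (1 of them MDS/MPN_TC) and 1 of undetermined disease, and a wild type and an Ezh2-deleted array of another slide labelled 3 months and without disease. The labels do not say which promoter drives the Cre, how many recipients gave the RNA of each array, or whether the mixed array holds pooled RNA.

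Ezh2 is the main catalytic subunit of Polycomb repressive complex 2 (PRC2), which places methyl groups on lysine 27 of histone H3 and so helps to keep genes of other lineages and stages silent. Myelodysplastic syndrome (MDS) is a clonal failure of blood formation with abnormal maturation, and MDS/MPN adds the overproduction of myeloid cells that marks a myeloproliferative neoplasm. EZH2 is recurrently inactivated in these human diseases. LSK cells already express low levels of genes of several lineages, a state known as priming, and the most lymphoid of them switch on recombinase and surrogate light chain genes before they commit.

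The time labels of the pair are not settled. In the table of processed values that the authors deposited, the columns of the 9 to 12 month wild type and mixed deletion samples held the values of the scanner files labelled 3 months, and the reverse. The match was close, with a standard deviation of the log2 ratio of 0.00030 for the wild type column and 0.00036 for the deletion column over the probes at a value of 1 or more, against 0.85 and 0.67 for the next closest scanner file. The 6 other columns matched their own files. The pair is taken here as the scanner files are labelled, which puts both arrays on the slide that carries the 6 other deletion arrays. Age and slide cannot be told apart for either pair.

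The files give intensities from a 1-colour Agilent mouse array with 55681 probes. A level below is the log2 of the processed signal over the 75th percentile of its array, and a difference is the level on the mixed array minus that on the wild type array. Of the probes, 38.7% were well above background on the wild type array and 38.5% on the mixed array, within the 32.5% to 47.5% of the 10 arrays, and none was saturated. The 75th percentile was 120 on the wild type and 124 on the mixed array. The brightest probe stood for each of 20972 named genes and the 28025 unnamed probes stood for themselves. With 1 array a group there is no replicate of the pair. Its number of arrays limits the precision, and a spot error that the scanner software estimates (median 0.21 for a log2 difference, 0.36 at the 95th percentile) covers the spot only. A limma fit therefore borrowed the spread of the 6 other deletion arrays, which carry different disease labels, so its standard errors (SE, 5 residual degrees of freedom) may be wider than the spread of like mice. Bulk arrays cannot tell a change in the share of a cell type from a change in RNA per cell.

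The sort markers were present on both arrays. Kit, the receptor behind c-Kit, read 5.06 on the wild type and 4.74 on the mixed array. Ly6a, which encodes Sca-1, read 4.55 and 4.10, the latter just under the lowest of the 6 other deletion arrays (4.18). Cd34 was at 8.56 and 8.60. Of the lineage markers used for exclusion, Ms4a1 and Cd8a were not well above background on either array, whereas Cd3e (2.54 and 2.25), Cd4 (2.61 and 2.47) and Itgam (5.38 and 5.32) were. Xist was above background on neither array and on 2 of the 6 other deletion arrays, and both arrays of the pair had the Y-linked Eif2s3y (1.83 and 1.62) and the lowest of the 6 others read -5.90.

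The pair is shown next through the upstream sequence of 4 genes, chosen after their values were seen from the surrogate light chain and eosinophil granule genes described below. Vpreb1 and Igll1 encode the 2 chains of the surrogate light chain, which pairs with the heavy chain in early B cell precursors, and Ear1 and Ear2 encode eosinophil-associated ribonucleases of the granule. Each line gives the 250 bases before the RefSeq start in GRCm38.p6, from 5′ to 3′ on the gene's strand. Capitals mark CAGGTG (or CACCTG, its other strand), an E-box that E proteins can bind, in the first pair, and CACCC (or GGGTG), a box that Krüppel-like factors can bind, in the second.
Vpreb1: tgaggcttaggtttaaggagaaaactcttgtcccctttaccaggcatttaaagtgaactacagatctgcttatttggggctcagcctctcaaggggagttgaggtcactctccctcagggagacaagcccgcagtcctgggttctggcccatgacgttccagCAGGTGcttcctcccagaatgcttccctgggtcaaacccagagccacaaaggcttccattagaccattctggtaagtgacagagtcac
Igll1: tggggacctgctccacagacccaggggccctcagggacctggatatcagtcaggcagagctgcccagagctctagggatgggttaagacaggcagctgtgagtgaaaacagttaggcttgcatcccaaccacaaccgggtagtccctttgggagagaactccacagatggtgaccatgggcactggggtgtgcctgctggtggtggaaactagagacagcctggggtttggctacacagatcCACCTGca
Ear1: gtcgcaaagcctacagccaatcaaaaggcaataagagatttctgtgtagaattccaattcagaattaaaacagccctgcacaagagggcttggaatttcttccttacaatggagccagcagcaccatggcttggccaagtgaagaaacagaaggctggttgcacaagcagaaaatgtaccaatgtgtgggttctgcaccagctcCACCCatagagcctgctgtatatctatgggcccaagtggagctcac
Ear2: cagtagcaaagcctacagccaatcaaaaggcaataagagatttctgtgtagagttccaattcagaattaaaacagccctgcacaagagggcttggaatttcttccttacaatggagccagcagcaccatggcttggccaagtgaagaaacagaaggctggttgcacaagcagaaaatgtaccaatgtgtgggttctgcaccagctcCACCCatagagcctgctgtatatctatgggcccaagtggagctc
The windows lie at chr16:16869256-16869505 (minus strand) for Vpreb1, chr16:16863986-16864235 (minus strand) for Igll1, chr14:43819640-43819889 (minus strand) for Ear1 and chr14:44102404-44102653 (plus strand) for Ear2. CAGGTG on either strand stood in 7 of 14 B cell marker promoters and 5 of 14 lymphoid priming promoters that the table holds, against 17.1% of all 27025 promoters of this length. CACCC on either strand stood in 10 of 11 eosinophil promoters, 11 of 14 lymphoid priming, 9 of 14 B cell marker and 17 of 22 erythroid promoters, against 51.3% of all. Of the 10 eosinophil promoters, 4 are those of Ear1, Ear2, Ear6 and Ear10, which are near-copies (85.1% to 99.2% identical), so they are not independent matches. The other motifs searched on both strands are given for the eosinophil, B cell marker and lymphoid priming promoters in that order. AGATAA was found in 2, 0 and 1 of them (10.2% of all promoters), CCCNNGGG in 1, 4 and 1 (11.7%), TGACTCA in 2, 0 and 0 (4.43%) and TGACGTCA in 0, 0 and 0 (1.62%). CAGGTG was in 0 of the eosinophil promoters. Matches of different motifs overlapped 0 times in the 4 printed windows, and CAGGTG and CCCNNGGG were added after the values were seen. The Ear1 and Ear2 windows were identical at 246 of 248 aligned bases (99.2%). Such near-copies share sequence in their transcripts too, so the readings of single Ear genes below are uncertain and may hold each other's signal.

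The mixed array was the closest of its slide to the wild type. Over the 14362 features well above background on all 8 arrays of the slide, the median absolute log2 difference between the pair was 0.14, the smallest of the 28 pairs of arrays that the slide allows. The next smallest was 0.19, between 2 MDS/MPN arrays. From the mixed array, the 2 MDS arrays lay at 0.20 and 0.25, the 3 MDS/MPN arrays at 0.41, 0.55 and 0.42, and the undetermined array at 0.58. The mean signal of the 5 arrays of the diseases that its label lists lay at 0.22, farther than the wild type array. The array labelled as a mixture of diseases thus read nearer to the control than to any array of those diseases. Position on the slide follows the same order. The pair and the 2 MDS arrays fill row 1 of the slide and the other 4 arrays fill row 2, so position and disease cannot be told apart here.

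**Figure D1:**
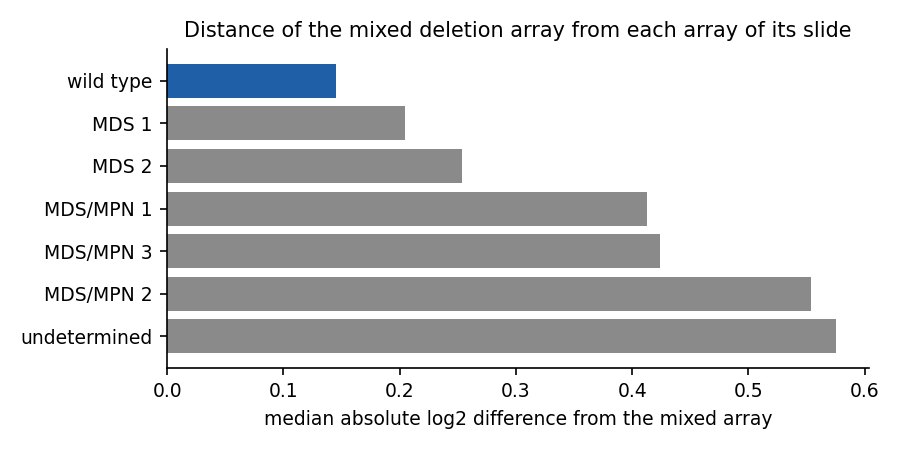
Bars give the median absolute log2 difference between the mixed deletion array and each other array of its slide, over the 14362 features well above background on all 8 arrays. The wild type array (blue) is the closest at 0.14, and the undetermined array the farthest at 0.58.

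Of 48997 features, 19580 were well above background on at least 1 array of the pair and 17096 on both. Among those on at least 1 array, 883 (4.51%) were at least 2-fold higher and 852 (4.35%) at least 2-fold lower on the mixed array. Most of these calls, 662 of the higher and 711 of the lower, came from features above background on 1 array only, whose fold is known only as a bound. Among the 17096 measured on both arrays, 221 (1.29%) were at least 2-fold higher and 141 (0.825%) at least 2-fold lower, the median difference was 0.02, and 10% of the features lay below -0.35 and 10% above 0.34. These shares are the background for the gene counts that follow, which use members measured on both arrays unless a bound is named. In limma with the borrowed spread, no feature differed at a Benjamini-Hochberg adjusted p under 0.05 (0% of 19580, lowest adjusted p 0.0776), while 384 were higher and 401 lower at an unadjusted p under 0.05. The count of 0 turned into 213 higher and 204 lower after quantile normalization, and into 115 higher and 133 lower without the second MDS/MPN array, whose 75th percentile of 302 was the highest of the 10 arrays. All gene differences below therefore describe these 2 arrays, and none of the genes named passed the adjusted threshold between them.

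**Figure D2:**
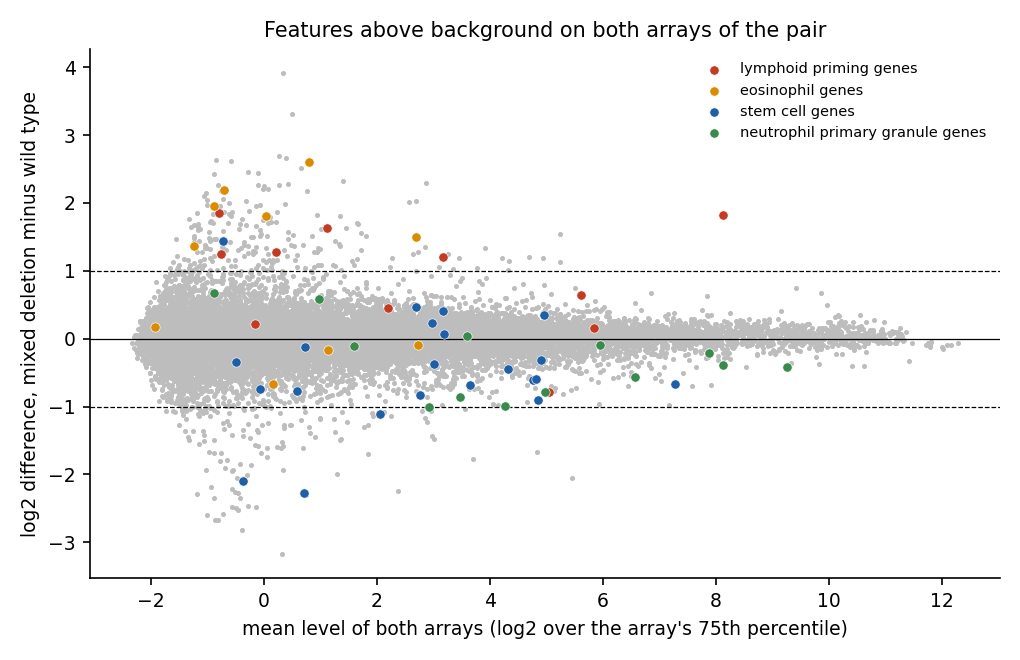
Each grey point is 1 of the 17096 features above background on both arrays, with the mean level of the pair on the x axis and the log2 difference, mixed minus wild type, on the y axis; dashed lines mark 2-fold. Lymphoid priming and eosinophil genes (red and orange) lie mostly above 0, stem cell genes (blue) and primary granule genes (green) mostly below.

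Ezh2 itself gave the same reading in the deletion and the control. Its 1 probe read 2.63 on the wild type and 2.63 on the mixed array, and 2.13, 2.28 and 3.35 as the lowest, median and highest of the 6 other deletion arrays. The difference of -0.0041 had a borrowed SE of 0.68. The files do not say where in the transcript the probe lies, so it does not check the deletion unless it falls in the floxed exons. The 11 PRC2 subunit genes on the array, all measured on both arrays, differed by between -0.66 and 0.31 with a median of 0.03. Ezh1, the paralogous methyltransferase, read 3.81 and 3.78, Eed, which binds the methylated tail, 4.17 and 4.35, and Suz12, the scaffold, 1.36 and 1.47. None of the 11 was 2-fold apart. Mtf2, an accessory subunit, had a second probe that differed by -2.44 where the brighter one differed by -0.18. Of 17 PRC1 subunits, 1 was 2-fold higher, Bmi1, which sustains stem cell self-renewal, at 2.01 and 3.26 (difference 1.25, SE 0.70; its other probe differed by 1.38), within the 6 others (2.07 to 3.39).

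Lymphoid priming genes were higher on the mixed array as a group. Of 18 genes on the list, 11 were measured on both arrays, 6 of them at least 2-fold higher and 0 lower, against 1.29% and 0.825% of all features. Their median difference was 1.21, and the same median of the 6 other deletion arrays against this wild type array, which all 7 comparisons share, ran from -0.76 to 0.48. On the mixed array 6 of the 11 lay above all 6 other deletion arrays, as did 10.3% of all features measured on the pair. The most abundant was Dntt, the terminal transferase that adds nucleotides at immunoglobulin and T cell receptor joints. It read 7.21 on the wild type and 9.04 on the mixed array, and 5.002, 6.91 and 8.37 as the lowest, median and highest of the 6 others, so the mixed array stood above every other array of the slide. The difference was 1.83, or 3.55-fold, with a borrowed SE of 1.51 and a spot error of 0.20. Rag2, a subunit of the recombinase, read -1.73 and 0.13 (difference 1.86, SE 1.29), with -3.23, -2.34 and -0.70 on the 6 others, again below the mixed array. Its partner Rag1 was not well above background on either array. Ccr7, a chemokine receptor for homing to lymphoid tissue, read -0.43 and 0.86, and Il12a, a cytokine subunit used as a lymphoid priming gene, -1.38 and -0.14. The mixed array was above the highest of the 6 others in both, at 0.50 and -0.89. Blnk, the adaptor of B cell receptor signalling, read 0.30 and 1.93, and the chromatin organiser Satb1 2.56 and 3.77, both inside the range of the 6 others. Flt3, the receptor that marks the lymphoid-primed progenitors, differed by 0.64, and Ikzf1, a transcription factor needed for lymphoid fate, by 0.45. Lymphotoxin beta went the other way, with Ltb at 5.44 and 4.65.

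A member above background on 1 array only gives a bound whose direction that filter sets, so such members add nothing to the shift above. Ccr9, which guides progenitors to the thymus, was not well above background on the wild type array and read 0.26 on the mixed array, at least 6.07-fold higher. A bound is the bright array's level against the lowest signal that counts as well above background on the dim array, or the probe's own level where that is higher. Il7r, the interleukin 7 receptor of lymphoid progenitors, read -1.12 on the mixed array, at least 2.33-fold higher, with -3.78, -2.56 and 0.36 on the 6 others. Notch1 was above background on the wild type array only.

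Surrogate light chain genes were higher as a set, while the B cell identity factors were not seen. Of 18 B cell markers, 6 were measured on both arrays, 3 of them at least 2-fold higher (1.29% of all features) and 0 lower, with a median difference of 0.75. The same median on the 6 other deletion arrays ran from -0.35 to 2.19. Vpreb3, a Vpreb family member of B cell precursors, had the largest difference of any named gene measured on both arrays, at -1.63 on the wild type and 2.28 on the mixed array. The 6 others read -2.60, 0.11 and 4.85, a range that contains both, and the difference of 3.91 had a borrowed SE of 3.58. Vpreb1 read 0.24 and 2.57, with -0.47, -0.01 and 4.79 on the 6 others, and Vpreb2 -1.67 and -0.34. Igll1, whose window is printed above beside that of Vpreb1, was above background on the mixed array only, at 0.32, at least 6.35-fold higher. The coactivator Pou2af1 (at least 1.48-fold) was likewise above background on the mixed array only, and this filter sets the direction of both bounds. In contrast, Pax5 and Ebf1, the transcription factors that fix B cell identity, and the receptor component Cd79a and the mature marker Ms4a1 were not well above background on either array, and Cd79b differed by 0.13. Outside the list, Ly6d, which marks B-biased lymphoid progenitors, read -0.61 and 1.90, and Jchain, the joining chain of secreted antibody, -2.10 and 0.04. Jchain was chosen after its values were seen. All 6 other deletion arrays lay above the wild type for Ly6d, at 1.12, 2.55 and 3.67. With the values of dim arrays raised to the detection limit, the median over the 9 B cell markers seen on at least 1 array was 0.56, against 2.28 as read.

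**Figure D3:**
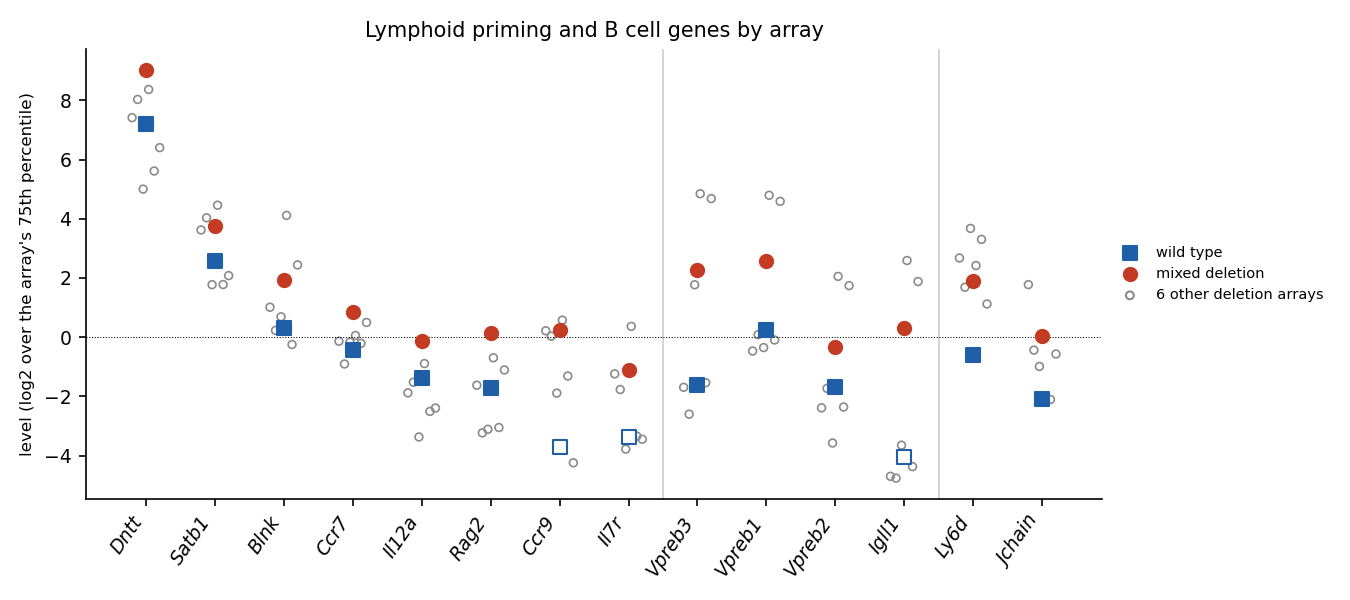
Levels of 14 lymphoid priming and B cell genes on the wild type array (blue squares), the mixed deletion array (red circles) and the 6 other deletion arrays (open grey circles); white symbols are values not well above background. The genes were chosen after their values were seen, and Ltb, which was lower on the mixed array, is not shown. The mixed array lies above the wild type for the 14 genes shown, and for Dntt, Ccr7, Il12a and Rag2 also above the 6 others.

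T cell markers had a small median difference, with some members higher on the mixed array. Of 12 measured on both arrays, 3 were at least 2-fold higher and 0 lower, against 1.29% and 0.825% of all features. The median of the 12 was 0.06. The 3 were Icos, a costimulatory receptor (-1.12 and 1.13), the inhibitory receptor Cd5 (-1.86 and -0.43) and the kinase Lck (3.76 and 4.91). For Icos and Lck the mixed array also stood above the 6 others, whose highest values were 0.35 and 4.48. The T cell receptor components Cd3d, Cd3g and Cd247 were not above background on either array. Only 3 of 14 NK cell markers were measured on both arrays, none 2-fold apart. Klrb1c, which encodes NK1.1, was above background on the wild type only and at least 4.52-fold lower on the mixed array, whereas 3 markers were above background on the mixed array only. These were the granzymes Gzmb (at least 2.06-fold higher) and Gzma (at least 1.38-fold), and Klrd1, an inhibitory receptor subunit (at least 1.69-fold).

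The eosinophil list, which holds granule genes, receptors and regulators, had the highest median of the 45 lists. Of 13 genes, 10 were measured on both arrays, 6 of them at least 2-fold higher and 0 lower, against 1.29% and 0.825% of all features. Their median difference was 1.43, inside the span of the 6 other deletion arrays against the same wild type, from -0.91 to 2.21. The granule ribonuclease Ear2 read -0.50 on the wild type and 2.10 on the mixed array, with -4.52, 0.69 and 3.99 on the 6 others. Its difference of 2.60 had a borrowed SE of 3.02 and a spot error of 0.22, so it exceeds the error of the spot and not the spread between the other deletion arrays. Ear1 read -1.81 and 0.39, Ear10 -1.87 and 0.09, and Ear6 -0.88 and 0.93. Rnase2a, another ribonuclease of the family that is not on the list, read -0.95 and 1.71. Because these genes are near-copies, they may count as fewer than 5 independent readings. Ear1, Ear2, Ear6 and Ear10 are among the 6 list members at least 2-fold higher. The count, the median and the rank of the list therefore lean on these copies. Genes that are not copies of them were higher too. Prg2, the major basic protein, read 1.94 and 3.43 (spot error of the difference 0.20), and eosinophil peroxidase Epx -1.92 and -0.55. Receptors and regulators of the lineage did not share this. Il5ra, the interleukin 5 receptor, differed by 0.17, Siglecf, a surface lectin of eosinophils, by -0.66 and Gata1, an erythroid and eosinophil transcription factor, by -0.09. Ccr3 was not above background. Prg3 was above background on the mixed array only, at least 4.13-fold higher, a direction that this filter sets. In the pair of the other slide the same 10 genes had a median of -2.10, deletion minus wild type, and Ear2 differed by -2.74. In the limma fit of the difference between the 2 pairs no feature passed (0% of 23572, 540 higher and 460 lower at an unadjusted p under 0.05), and all features shifted by a median of -0.22 in that fit.

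Mast cell and basophil genes leaned lower on this pair, with a median of -0.31. Of 11 measured on both arrays, 1 was at least 2-fold higher and 1 lower, against 1.29% and 0.825% of all features. In the pair of the other slide the same 11 genes had a median of 2.40, deletion minus wild type. Lower was Slc18a2, the vesicular monoamine transporter that loads histamine, at 2.11 and 0.63, and higher was Il18r1, the interleukin 18 receptor, at -0.82 and 0.69. On the mixed array 6 of the 11 lay below all 6 other deletion arrays, against 5.99% of all features. Mcpt4, a chymase, was above background on the mixed array only (at least 1.9-fold) and Il4, a type 2 cytokine, on the wild type only (at least 3.71-fold lower on the mixed array). Cpa3, the carboxypeptidase of mast cell granules, read 2.13 and 2.09.

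Neutrophil primary granule genes were mostly lower on the mixed array by less than 2-fold and mostly stood below the other deletion arrays. Of 13 measured on both arrays, 10 were lower, only Hp by 2-fold or more, with a median of -0.39. The same median ran from 0.02 to 1.97 on the 6 other deletion arrays. Mpo, the myeloperoxidase, read 9.46 on the wild type and 9.05 on the mixed array, just below the 9.16, 10.07 and 11.43 of the 6 others. Elane, neutrophil elastase, read 4.76 and 3.77, and proteinase 3 (Prtn3) 5.36 and 4.58, with 4.63, 6.49 and 7.92 and 5.17, 6.30 and 7.26 on the 6 others. Cathepsin G (Ctsg) read 8.32 and 7.93, with at least 8.50 on the others. On 9 of the 13 genes the mixed array was below all 6 other deletion arrays (5.99% of all features), and on 6 of the 13 the wild type was as well (3.92% of all features). Haptoglobin (Hp) shows the order, at 3.43 on the wild type, 2.42 on the mixed array and 4.73, 5.86 and 7.63 on the 6 others. The regulator Cebpe, needed for the later granules, was at 0.68 and 1.27, under the lowest of the others (1.63).

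Late neutrophil genes split. Of 9 measured on both arrays, 3 were at least 2-fold higher and 1 lower, against 1.29% and 0.825% of all features. The median of the 9 was 0.06, and it ran from 0.89 to 3.14 on the 6 other deletion arrays. The calprotectin subunits S100a8 (1.06 and 2.24) and S100a9 (2.09 and 3.37) and the cathelicidin Camp (-0.64 and 1.08) were the 3 higher, all at or near the lower end of the 6 others, whose lowest values were 2.68, 2.99 and 0.73. Lcn2, a siderophore-binding granule protein, read -1.49 and -1.03, far under the 2.08, 2.66 and 4.68 of the others. Ifitm6, found on myeloid cells, was the 1 lower, at -0.58 and -1.72. Among monocyte and dendritic cell markers 0 of 13 were 2-fold higher and 1 lower, the chemokine receptor Ccr2 (-0.86 and -2.14), which read -1.14, -0.26 and 0.98 on the others.

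MHC class II genes, which present peptides to helper T cells, were mostly lower on the mixed array, and some stood below all 6 other deletion arrays. Of 9 measured on both arrays, 8 were lower, 1 by 2-fold or more, with a median of -0.47, which ran from -0.10 to 1.58 on the 6 others. Cd74, the invariant chain, read 1.91 on the wild type and 0.84 on the mixed array, and 3.77, 5.18 and 6.46 on the 6 others, which do not overlap the pair. H2-Aa read 1.53 and 0.68 and H2-Eb1 4.62 and 3.65, with lowest values of 2.58 and 5.87 among the others. On 5 of the 9 the mixed array was below all 6 others (5.99% of all features), and on 4 the wild type was too. Over all features, both arrays of the pair were below all 6 others for 3.92% and above all 6 for 6.45%.

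Alpha globin was higher on the mixed array and still far below most of the other deletion arrays. Hba-a1 read -1.99 and -0.34 and Hba-a2 0.63 and 2.26, a difference of 1.65 and 1.63. The 2 genes encode the same chain, so their probes are not independent. The 6 others read -1.38, 4.24 and 5.59 for Hba-a1 and 1.06, 6.85 and 8.09 for Hba-a2. Beta globin did not follow, with Hbb-bt at 4.47 and 4.48. Of 22 other erythroid genes 2 were at least 2-fold higher and 0 lower, with a median of 0.07. They were Car1, a red cell carbonic anhydrase (0.33 and 1.64), and the blood group antigen Rhd (-0.97 and 0.39). The master regulator Klf1 was equal, at -1.16 and -1.15, against -1.62, 1.09 and 3.94 on the others. For 7 of the 22 the mixed array lay below all 6 others (5.99% of all features).

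Stem cell genes leaned lower. Of 28, 22 were measured on both arrays and 16 of them were lower, where 52.7% of all features on both arrays were higher. At least 2-fold, 3 were lower and 1 higher, against 0.825% and 1.29% of all features. The median of the 22 was -0.53. The same median ran from -1.87 to 0.05 on the 6 other deletion arrays. The largest difference downward was in Vwf, von Willebrand factor, which marks platelet-biased stem cells. It read 1.85 on the wild type and -0.43 on the mixed array, and 0.96, 1.57 and 3.51 on the 6 others, so the mixed array was the lowest of the slide. The difference was -2.28, or 4.84-fold, with a borrowed SE of 1.32 and a spot error of 0.22. Sult1a1, a sulfotransferase found in quiescent stem cells, read 0.68 and -1.43 with a wide -3.47, -1.05 and 4.31 on the others, and its second probe differed by -1.86. Esam, an adhesion molecule of stem cells, read 2.60 and 1.49. The endothelial protein C receptor Procr (3.18 and 2.35) and the transcription factor Hlf (3.99 and 3.31), both known from stem cells, were lower by less than 2-fold. The lectin receptor Clec1a was above background on the wild type only, at least 2.36-fold lower on the mixed array. Slamf1, which encodes CD150, went the other way, at -1.45 and -0.0041, above the highest of the 6 others (-0.95).

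**Figure D4:**
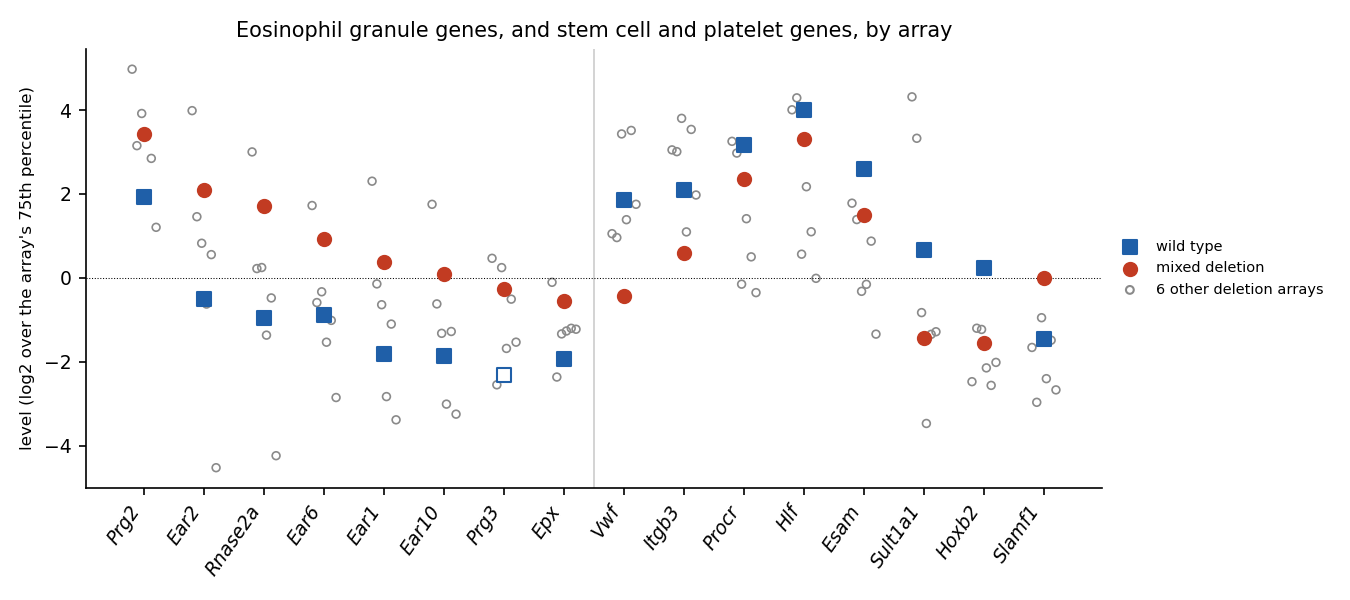
Levels of 8 eosinophil granule genes (left of the line) and 8 stem cell, platelet and Hox genes (right) on the wild type array (blue squares), the mixed deletion array (red circles) and the 6 other deletion arrays (open grey circles); the white square is not well above background. The genes were chosen after their values were seen. Of all 22 stem cell genes measured on both arrays, 6 were higher on the mixed array. The mixed array is above the wild type for the 8 granule genes and below it for the genes on the right other than Slamf1.

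The megakaryocyte and platelet list shares Vwf and Slamf1 with the stem cell list. It had a median of -0.54, with 3 of 19 at least 2-fold lower and 1 higher (0.825% and 1.29% of all features). Besides Vwf these were the fibrinogen receptor subunit Itgb3 (2.09 and 0.60, against 1.097, 3.03 and 3.80 on the others) and Gp1ba, the receptor for Vwf (-1.07 and -2.14). Platelet factor 4 (Pf4) differed by -0.79 and Itga2b, the partner of Itgb3, by -0.46. Only 3 of the 19 were higher on the mixed array, against 52.7% of all features on both arrays. On 5 of the 19 the mixed array lay below all 6 other deletion arrays (5.99% of all features).

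Hoxa genes were alike on the pair and some Hoxb genes were lower. The 2 Hoxa genes that LSK cells are known for read alike, Hoxa9 at 0.05 and 0.10 and Hoxa10 at -1.01 and -0.57. Hoxb2 was lower on the mixed array, at 0.23 and -1.56, where the 6 others read -2.56, -2.08 and -1.20, all below the wild type. Hoxb3 (at least 1.67-fold lower) and Hoxb5 (at least 1.79-fold lower) were above background on the wild type only, while Hoxb4 was equal (0.27 and 0.30). Of 46 developmental transcription factors of other tissues, which PRC2 keeps silent in blood, 40 were above background on neither array, 3 on both with no 2-fold difference, 2 on the mixed array only and 1 on the wild type only. Pax2 (at least 2.81-fold higher) and Dlx5 (at least 1.37-fold higher) were the 2, and Pou3f2 (at least 9.8-fold lower) was the 1. Hmga2, an architectural factor of fetal stem cells, was higher, at -1.51 and 0.96, above all 6 others (highest 0.69), and its second probe differed by 3.43.

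Cell cycle genes were slightly higher. Of 24 mitosis genes measured on both arrays 23 were higher, none by 2-fold, with a median of 0.37 and a largest difference of 0.74. Of 31 DNA replication genes 30 were higher, none by 2-fold, with a median of 0.20, where 52.7% of all features on both arrays were higher. The proliferation marker Mki67 read 2.45 and 2.70 and topoisomerase Top2a 2.91 and 3.37. The medians on the 6 other deletion arrays ran from -0.33 to 0.45 for mitosis and from -0.39 to 0.80 for replication, on both sides of 0.

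Immediate early genes, which respond within minutes to handling and to signals, were alike on the pair. The median was 0.09 over 8 AP-1 genes and 0.12 over 21 Egr, Nr4a and other genes. On the 6 others these medians ran from -1.79 to 0.82 and from -2.34 to 0.90. Fos read 6.75 and 6.87 on the pair and -0.98, 1.38 and 6.71 on the others, so both arrays of the pair stood above all 6. Egr1 read 4.12 and 4.37. Nr4a1, an orphan nuclear receptor, was the only 1 of the 29 genes of both lists at least 2-fold apart (2.62 and 3.88). Whether sorting and handling account for the nearness of the pair was not tested.

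Stress and p53 target genes held single differences rather than a shift of the group. Of 17 p53 targets 2 were at least 2-fold higher and 0 lower (1.29% and 0.825% of all features), with a median of 0.17. They were Phlda3, an inhibitor of Akt (1.05 and 2.56), and the cell death effector Perp (-0.35 and 0.81). Pmaip1, which encodes Noxa, was above background on the mixed array only, at least 2.2-fold higher. Metallothionein Mt2, which binds zinc and copper, read 0.79 and 2.49, and Mt1 3.98 and 4.59. The 6 others read 4.71, 6.49 and 8.69 for Mt2, without overlap with the pair. Of 26 interferon response genes 2 were at least 2-fold higher, Ifit2 (-0.85 and 0.45) and Ifi27l2a (4.68 and 5.81), with a median of 0.11. At least 2-fold, there were 0 higher and 0 lower of 16 inflammatory cytokine and NF-kB genes (median 0.17), 0 higher and 0 lower of 12 Bcl2 family genes (median -0.09) and 0 higher and 0 lower of 5 CDK inhibitors (median -0.12). There were 2 higher and 0 lower of 18 myeloid oncogene regulators (median -0.07) and 0 higher and 0 lower of 25 genes recurrently mutated in human MDS (median 0.07). Glycolysis (-0.12) and respiratory chain genes (0.11) had 0 members 2-fold apart among 19 and 30. Ribosomal protein genes served as a quiet group, with 34 of 34 within 2-fold and a median of 0.03.

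**Figure D5:**
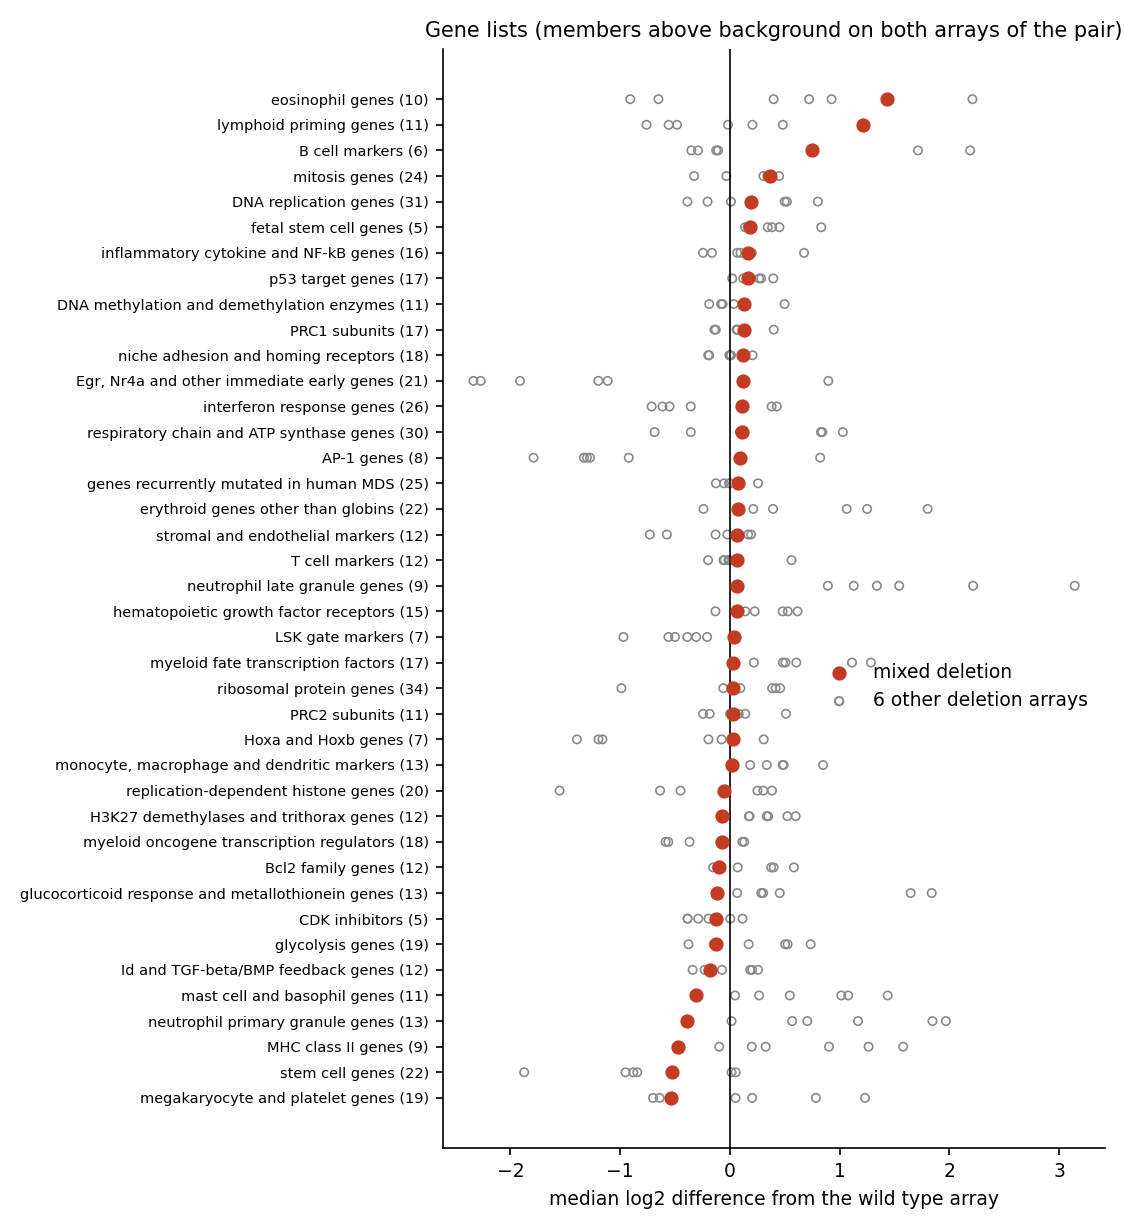
Median log2 difference from the wild type array of each gene list with at least 5 members above background on both arrays of the pair (number in brackets), for the mixed deletion array (red) and the 6 other deletion arrays (open grey). Across the lists shown, and not across arrays, the median of the mixed array is highest for eosinophil and lymphoid priming genes. It is lowest for megakaryocyte, stem cell and MHC class II genes. All arrays share the same wild type array.

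Several of the largest differences of single genes fell outside these groups. Among named genes measured on both arrays, Lrmda, a melanocyte differentiation gene, had the largest difference downward, at 1.91 and -1.26 (difference -3.17, SE 1.07, limma adjusted p 0.565). The 6 others read -3.98, -2.34 and -1.53, so all 7 deletion arrays of the slide were below the wild type. Enox1, a surface oxidase, read 1.02 and -1.80 with -3.13, -1.77 and -1.15 on the others, and Sepsecs, which makes selenocysteine on its transfer RNA, 0.80 and -1.73 with -2.27, -1.62 and -0.87. Rab20, a small GTPase of endosomes, followed the same order, at 0.96 and -1.52 with -2.03, -1.23 and -0.34. In these 4 genes the wild type array stands apart from the 7 others. With 1 wild type array on the slide, a reading particular to it cannot be told apart from the genotype within that slide. Their differences on the other slide were -2.89, 0.02, 0.49 and -1.02. The wild type array of that slide read 1.15 for Lrmda, -1.52 for Enox1, -2.30 for Sepsecs and -1.16 for Rab20. Only for Lrmda was it above every deletion array of both slides. Gstm2, a glutathione transferase, read 0.74 and -1.60, and the stress regulator Nupr1 1.90 and -0.40, the mixed array inside the range of the others in both. Upward, Igfbp7, a secreted binder of insulin-like growth factors, read -2.16 and 0.47, above the highest of the others (-1.34), with an unadjusted limma p of 0.018 and an adjusted p of 0.609. Chga, chromogranin A of secretory granules, read -2.09 and 0.33, and Bex2, a gene of brain and stem cells, -0.86 and 1.40, within the others.

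Features seen on 1 array only made up the larger folds. On the mixed array alone 1189 features were well above background, 364 of them on none of the 6 other deletion arrays, and on the wild type alone 1295, 441 of them on none of the 6. Bounds of 2-fold or more held for 367 of the former and 379 of the latter. Chm, a Rab escort protein, had the largest bound, at 2.88 on the mixed array and at least 34-fold higher. In the other direction the neural adhesion gene Cntn5 (at least 12.1-fold lower) and the lung surfactant protein Sftpd (at least 10.8-fold lower) were above background on the wild type alone. Each of these 3 genes rests on 1 probe above background, and whether such a spot reflects RNA was not tested.

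Set against the 6 other deletion arrays directly, the mixed array had 116 features higher (0.597% of 19444) and 6 lower (0.0309%) in limma at an adjusted p under 0.05. Of the 116, 100 were above background on none of the 6, where the spread is that of background signal. Only 4 calls were measured on the mixed array and on at least 3 of the others, and all 4 were lower on the mixed array. F13a1, the coagulation factor XIII chain made by monocytes and platelets, read 2.09 on the mixed array and 2.95 on the wild type against 4.34, 4.84 and 5.32 on the 6 (limma adjusted p 0.0424). Gda, guanine deaminase, read -0.76 against 1.86, 2.49 and 3.29 (adjusted p 0.0435 in limma). The receptor genes Mrgpra2b (-1.08 against 1.39, 2.14 and 2.73) and Mrgpra2a (-1.26 against 1.23, 2.12 and 2.61), near-copies of each other, had limma adjusted p-values of 0.0444 and 0.0457. On the wild type array Gda read 0.85, Mrgpra2b 0.35 and Mrgpra2a -0.05, below the lowest of the 6 in each case. The calls were lost when either MDS array or the undetermined array was left out, with 0 higher and 0 lower each time. There were 147 higher and 2 lower without the first MDS/MPN array, 205 and 15 without the second and 44 and 1 without the third. With normexp background correction there were 1 higher and 0 lower.

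The pair of the other slide, labelled 3 months by its scanner files and 9 to 12 months by the deposited table, gave other values for the same members. Its median, deletion minus wild type, was 0.88 for the lymphoid priming genes, 0.75 for the B cell markers and -1.74 for the stem cell genes, the same sign as in the mixed pair. The mast cell and basophil genes stood at 2.40 there, the neutrophil primary granule genes at 1.71 and the MHC class II genes at 0.45, the opposite sign. Some lists with a median near 0 in the mixed pair changed sign too, such as AP-1 genes (-0.65) and p53 targets (-0.32). Mitosis genes stood at 1.30 and DNA replication genes at 1.20, above the mixed pair. The sign of the eosinophil, mast cell, neutrophil primary granule and MHC class II medians at 9 to 12 months, among others, thus depends on which of the 2 sets of labels is taken.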

How the data were processed

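RNA of sorted LSK cells was hybridised to 1-colour Agilent arrays, 1 per sample. The deposited scanner files hold processed intensities with background flags and a spot error, made by the authors with Feature Extraction 10.7.1.1 per the file headers, while the submitters' processing notes name version 9.1. The deposited value table holds linear ratio values of unstated scaling, with column medians of 0.07 to 0.12, that followed the scanner signal of 1 file each. Levels were log2 signal minus the log2 of the array's 75th percentile, spots of a probe were averaged and outlier spots left out. Of 29123 probes with a RefSeq accession, 27656 were named by 1 symbol, giving 20972 genes, each by its brightest probe. Differences were tested with limma 3.58.1 in R 4.3.3 (Benjamini-Hochberg), with the spread of the 6 other deletion arrays and 5 residual degrees of freedom. The pair fit was also run on simulated data. It called few of the features changed by a log2 of 2 and most of those changed by a log2 of 4. A feature without a call may therefore still differ. Figures and tables used Python 3.11.15. List medians use members above background on both arrays.

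Members and lists were chosen with earlier results of these data known. The genes named were the PRC2 subunits, up to 12 per direction with the largest differences on both arrays, up to 8 per direction with the largest bounds on 1 array, up to 4 per list among those 2-fold apart, up to 10 per direction past limma, and the gate markers; the text names a selection of these. Other list members, and Jchain, Xist and Eif2s3y, were named after their values were seen. Labels do not say that samples are separate animals, so p-values measure only the spread between these arrays. Some genes are not reported here. Alternatives were normexp, quantile and median centring, other probes, filters, thresholds, controls and labels, and leaving out each array.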

Additional observations from a re-analysis of the deposited data

Results flagged for a closer look

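Among 126 results tested for 1 array far from the other 5 deletion arrays of the slide, 11 had one, and chance gives about 1 in 20. The second MDS/MPN array was the lowest for Hba-a1 (-1.38), Hba-a2 (1.06), Eif2s3y (-5.90), Gstm2 (-3.15) and the globin median (0.68 above the wild type array), and the highest for Mki67 (6.29), Hoxb4 (0.85) and Nr4a1 (7.62). The undetermined array was the lowest for Bmi1 (2.07), Bex2 (-1.18) and Itgam (4.39). The arrays of the pair were not part of this test. The range given above for the 6 other deletion arrays rests on the 1 flagged array for these results.

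The eosinophil list had a median of -2.10 in the pair of the other slide and 1.43 in the mixed pair. The difference between the 2 medians was not tested as a list, and limma called 0 features between the pairs.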

How the results depend on the processing

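The labels of the authors' value table exchange the pair with that of the other slide. Under them 2884 features were higher and 2719 lower on at least 1 array (2892 and 2723 with the table's own values), and 2046 and 1330 on both arrays (2050 and 1330). List medians became -1.74 for stem cell genes with either source of values, 0.52 for lymphoid priming, 1.71 for neutrophil primary granule and 0.74 for MHC class II genes, and reversed to -2.41 for eosinophil genes with either source of values. Of 82 named genes at least 2-fold apart, 51 kept their direction. The differences that reversed became, upward, Ccr2 3.21, Cd74 1.45, Cntn5 0.16, Enox1 0.0186, Hp 4.50, Ifitm6 2.09, Mrgpra2a 2.83, Mrgpra2b 3.19, Pou3f2 1.69, Sepsecs 0.49 and Sftpd 1.95, and, downward, Blnk -0.53, Chm -2.06, Dlx5 -0.72, Ear1 -2.87, Ear10 -2.53, Ear2 -2.74, Ear6 -2.43, Epx -1.74, Ifit2 -0.38, Igll1 -0.0762, Jchain -3.16, Mt2 -0.14, Nr4a1 -1.99, Pax2 -0.9995, Pou2af1 -0.19, Prg2 -2.74, Prg3 -2.40, Rnase2a -2.67, S100a9 -0.34 and Slamf1 -2.65. With the mean of both wild type arrays as control 75 of 82 kept it, both-array counts were 515 and 403, the lymphoid priming median was 1.74, and the reversed genes were Camp -0.0352, Mt2 -1.29, Nr4a1 -1.95, Pmaip1 -0.50, S100a8 -0.41, S100a9 -0.41 and Slamf1 -0.13. Normexp correction left 263 higher and 251 lower on at least 1 array, 83 and 53 on both, and a lymphoid priming median of 0.68. A 1.5-fold threshold gave 1482 and 1659 on at least 1 array and 605 and 654 on both, and a 4-fold threshold 467 and 458, and 30 and 25. Without a filter the counts were 1990 and 3115, with both arrays required 221 and 141, and with every array of the slide required, an alternative added after seeing the data, 135 and 79. Over members on at least 1 array the B cell median was 2.28.

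In limma the pair gave 213 higher and 204 lower after quantile normalization, and between 0 and 115 higher and 0 and 133 lower with 1 other array left out. Against the 6 other deletion arrays the 116 higher and 6 lower became 259 and 10 with quantile normalization, 1 and 0 with normexp, 25 and 0 under the table's labels, and 0 and 0 with a trend and robust fit, with the spread within disease groups or with features above background on every array. Leaving out 1 array gave 0 to 205 higher and 0 to 15 lower. The difference of the 2 pairs gave 176 higher and 145 lower with quantile normalization. The cause of these changes was not tested, apart from the fewer features of the stricter filters. No paired analysis was possible because each group of the pair holds 1 array. Signal limits the rest, as 29417 of 48997 features were above background on neither array.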
